A study of Mus musculus with 24 samples.

Results

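The mRNA of 7 GABA-A receptor subunit genes, *Gabra2*, *Gabra4*, *Gabra5*, *Gabrb1*, *Gabrb2*, *Gabrg1* and *Gabrd*, was followed in the nucleus accumbens (NAc) of male and female mice with and without subchronic variable stress (SCVS). The genes were chosen by name and matched by Ensembl identifier to 7 of the 38293 genes in the table of mRNA counts, and all 7 were among the 18593 genes that passed the filter on low counts, with at least 1809 reads in every library. The groups were unstressed males (NSM), stressed males (SM), unstressed females (NSF) and stressed females (SF) of the strain C57BL/6J, 9 weeks old by the labels and 8 weeks by the study's methods, and the females of both conditions were in estrus or proestrus. Stressed mice were exposed to foot shock, tail suspension and restraint over 6 days, and tissue was taken 24 h after the last stressor. Each of the 12 libraries, 3 per group, was made from 10 bilateral 14-gauge punches pooled from 5 mice, so that differences between single mice and between cell types are not seen. Libraries held between 41076780 and 60867747 counted reads.

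GABA-A receptors are chloride channels built from 5 subunits that GABA, the main inhibitory transmitter of the brain, opens. Most hold α and β subunits, which together form the GABA site, and a further kind of subunit, usually γ, which sends receptors to synapses and with a neighboring α subunit forms the benzodiazepine site, or δ, which is found in receptors outside synapses that carry tonic inhibition and respond to neurosteroids. In the NAc most neurons are GABAergic projection neurons of the striatal type, which both release GABA and receive it.

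The α subunits differ in 1 amino acid of the benzodiazepine site, histidine in receptors that bind classical benzodiazepines and arginine in those that do not. The coding sequence around this codon is shown for the 3 α members because it separates *Gabra4* from *Gabra2* and *Gabra5*, with the codon in capitals (GENCODE transcripts of NCBIM37).
Gabra2: gataccttctttCACaatgggaaaaag
Gabra4: gatactttcttcAGGaatggaaagaaa
Gabra5: gacacgttcttcCACaacggcaagaag
The codon is read as histidine in *Gabra2*, at codon 129 from the start, and in *Gabra5*, at codon 136, and as arginine in *Gabra4*, at codon 135. Although the subunits are related, none of the 84 pairs of a member with another listed subunit gene shared an exact stretch of 50 bases, the length of a read, and the longest was 27 bases, between *Gabrb2* and *Gabrg3*. Reads of 1 of these genes could thus not be taken for another of them without mismatches.

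In the genome build of the counts, NCBIM37, 4 of the 7 genes lie in 1 cluster on chromosome 5. These are *Gabrg1* (ENSMUSG00000001260, 71142286 to 71233856), *Gabra2* (ENSMUSG00000000560, 71352296 to 71487088) and *Gabra4* (ENSMUSG00000029211, 71960973 to 72049547) on the minus strand and *Gabrb1* (ENSMUSG00000029212, 72091171 to 72529628) on the plus strand. *Gabra5* (ENSMUSG00000055078) lies on chromosome 7 from 64663060 to 64765379. *Gabrb2* (ENSMUSG00000007653) lies on chromosome 11 from 42233259 to 42446092 and *Gabrd* (ENSMUSG00000029054) on chromosome 4 from 154759089 to 154772221. All 7 are annotated as protein coding. The span of *Gabra5* overlaps *Gm9962* on the opposite strand, with which it shares 118 bases of exon, and since the library kit keeps no strand, reads from these bases cannot be told apart. The span of *Gabrb1* overlaps the pseudogenes *Gm15616* and *Gm15617* but shares 0 bases of exon with either.

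Among the subunits, levels were compared per length as RPKM, reads scaled to library size and to the length of annotated exons, averaged over the 12 libraries. Of the α members *Gabra4*, the partner of δ in extrasynaptic receptors, had the highest level with 57.5 RPKM, followed by *Gabra2* with 22.1 RPKM, between 19.4 and 26.4 over the libraries, and *Gabra5* with 17.0 RPKM, between 15.4 and 20.2. The β members *Gabrb1* and *Gabrb2* had 16.4 and 13.5 RPKM. *Gabrg1*, a γ subunit, had 12.5 RPKM, and *Gabrd*, the δ subunit, had 41.4 RPKM. *Gabra4* was above *Gabrd* and *Gabrd* above *Gabra2* in 12 of 12 libraries without overlap of the ranges. *Gabra5* and *Gabrb1* could not be ordered, since *Gabra5* was the higher in 6 of 12 libraries, and *Gabrb2* was above *Gabrg1* in 10 of 12. Among the members and the lengths tried, the order depended on the annotated length for 2 genes. With the longest transcript in place of all exons *Gabrd* had 62.0 RPKM, above *Gabra4* with 57.6, and *Gabrb2* had 17.5. With its shortest transcript that has both untranslated regions *Gabrb2* had 33.6. Shorter transcripts without both regions were not tried.

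**Figure D1:**
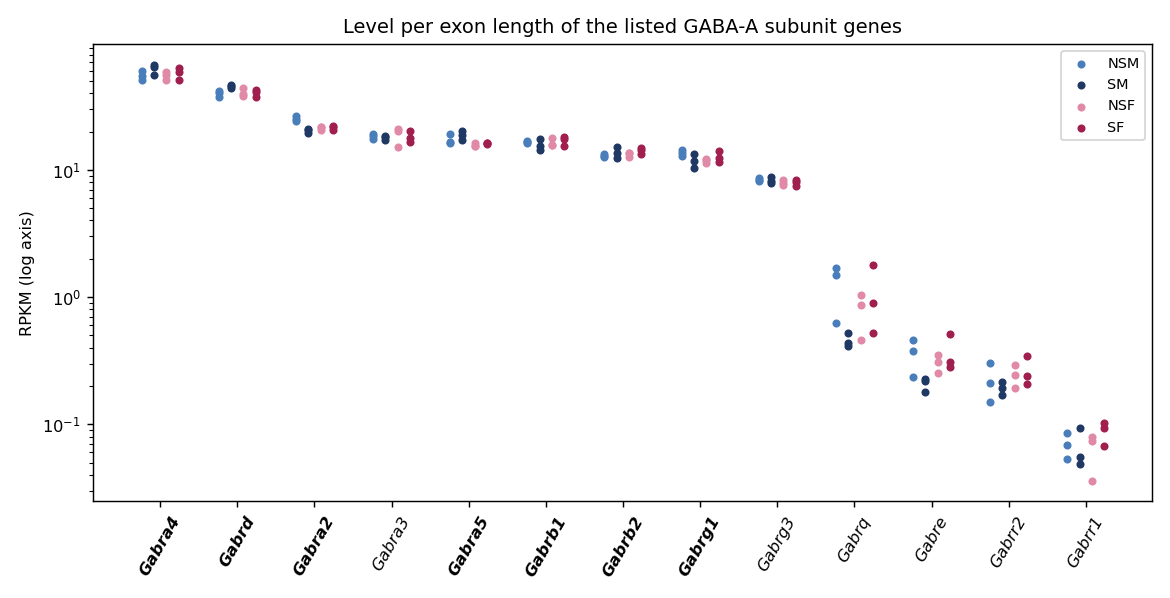
RPKM of the listed GABA-A subunit genes that had reads in all 12 libraries, on a log axis, with a point for each library, 3 per group, and members in bold. Among the genes drawn *Gabra4* and *Gabrd* had the highest means, 57.5 and 41.4 RPKM, and *Gabrq*, *Gabre*, *Gabrr2* and *Gabrr1* were below 1 RPKM on average.

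Of 9 other subunit genes listed here *Gabra3* had 18.3 RPKM, between *Gabra2* and *Gabra5* on average, and *Gabrg3* had 8.14 RPKM, below *Gabrg1* in 12 of 12 libraries. The order of *Gabrg3* and *Gabrg1* rests on annotated exon lengths of 11934 and 4771 bases. Scaled to library size alone (CPM), *Gabrg3* was the higher on average, with 97.2 beside 59.4. Other lengths were tried for the members only. *Gabrq* had 0.897, *Gabre* 0.309, *Gabrr2* 0.230 and *Gabrr1* 0.0713 RPKM. *Gabra6*, *Gabrp* and *Gabrr3* were too low to be tested.

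The tissue label was checked for striatum in general, and not for the NAc within it. The check used 10 markers of striatal projection neurons, among them *Drd1a*, *Drd2*, *Ppp1r1b* and *Penk*. All 10 were found in every library, and their sum in CPM, read counts scaled to library size with TMM factors, was 5720 to 6606 in NSM, 6286 to 7085 in SM, 5645 to 6585 in NSF and 5864 to 6859 in SF. Other lists differed between libraries. The 10 markers of cortical glutamatergic neurons, a cell type of the neighboring cortex, summed to 50.4 to 68.9 CPM in NSM, 91.2 to 243 in SM, 66.2 to 416 in NSF and 85.1 to 159 in SF. Members of this list did not vary alike. *Slc17a7* had 198 to 13995 reads over the libraries, while *Rorb* had 711 to 1046 and *Cux2* 834 to 1583. The 5 oligodendrocyte markers summed to 4275 to 4779 CPM in NSM and to 4790 to 5518 in the other 9 libraries. The 5 blood markers summed to 21.8 to 27.4 CPM in NSM and to 28.8 to 47.2 in the others. The 6 microglia markers summed to 237 to 253 CPM in NSM, 265 to 293 in SM, 248 to 261 in NSF and 256 to 291 in SF. Sums of the 6 astrocyte markers were 1064 to 1151 CPM in NSM, 1006 to 1100 in SM, 1032 to 1060 in NSF and 1016 to 1145 in SF. Those of the 4 thalamus markers were 52.5 to 54.3 CPM in NSM, 57.5 to 61.1 in SM, 52.7 to 58.4 in NSF and 58.3 to 69.1 in SF. The 5 choroid plexus markers summed to 108 CPM in NSM replicate 1 and to 32.0 to 43.7 in the other 11 libraries. Of these markers *Ttr* alone had 3743 reads in NSM replicate 1, beside 20 to 126 in the others. For the oligodendrocyte and blood lists each unstressed male library was below each of the other libraries. Of 7 hypothalamus markers 3 were tested, and *Hcrt*, *Pmch*, *Avp* and *Oxt* were at 0 in some libraries. In bulk tissue fewer cells of a type and less RNA per cell cannot be told apart.

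**Figure D2:**
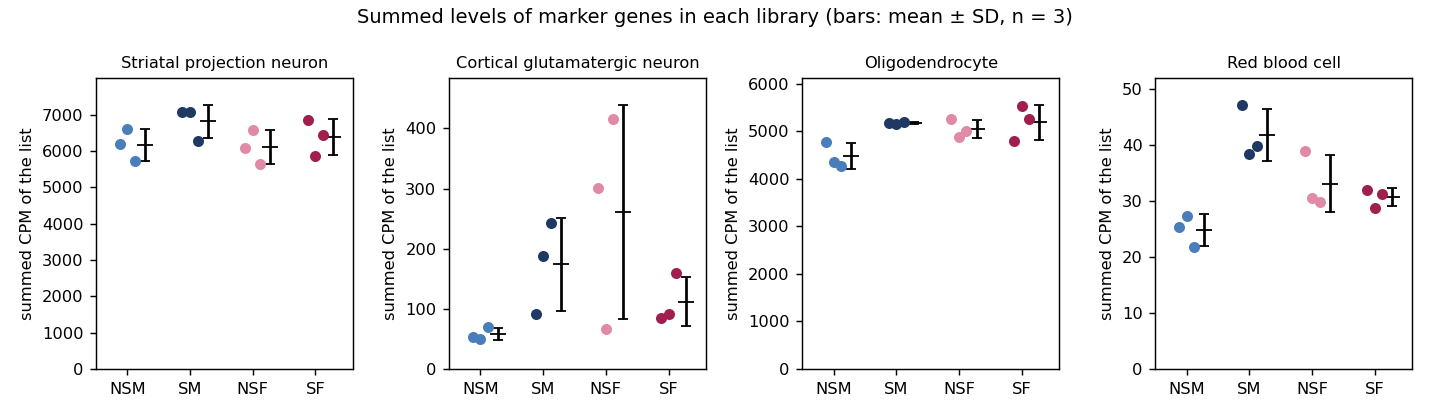
Summed CPM of the markers of 4 cell types in each library, with points for libraries and bars for mean ± SD (n = 3). The oligodendrocyte and blood sums of the 3 unstressed male libraries lie below those of the other 9, and the cortical sums range from 50.4 to 416 CPM.

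To compare stressed with unstressed mice of the same sex, and the sexes within a condition, voom and limma were fitted to all 12 libraries. A gene counted as regulated when its unadjusted p was below 0.05 and its fold change 1.3 or more, the rule of the methods. Adjusted p values were computed over all 18593 genes. None of the 7 subunits was regulated by this rule in any of the 5 comparisons, including the difference between the stress effects in the sexes. For all genes the rule was met by 6.44% in males after stress, 1.73% in females after stress, 4.42% for the difference between these effects, 5.31% between unstressed females and males and 5.55% between stressed females and males. The comparisons share their groups in pairs and are not independent of each other. At an unadjusted p under 0.05 alone, 3 of the 7 differed in males, none in females, 3 in the difference between the sexes' stress effects, 2 between unstressed and 2 between stressed sexes, beside 21.5%, 4.23%, 9.55%, 15.4% and 16.4% of all genes. At an adjusted p under 0.05 the share of all genes was 0% in females and 0.0269% for the difference between the sexes' stress effects. By edgeR and DESeq2 too, none was regulated in any comparison.

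**Figure D3:**
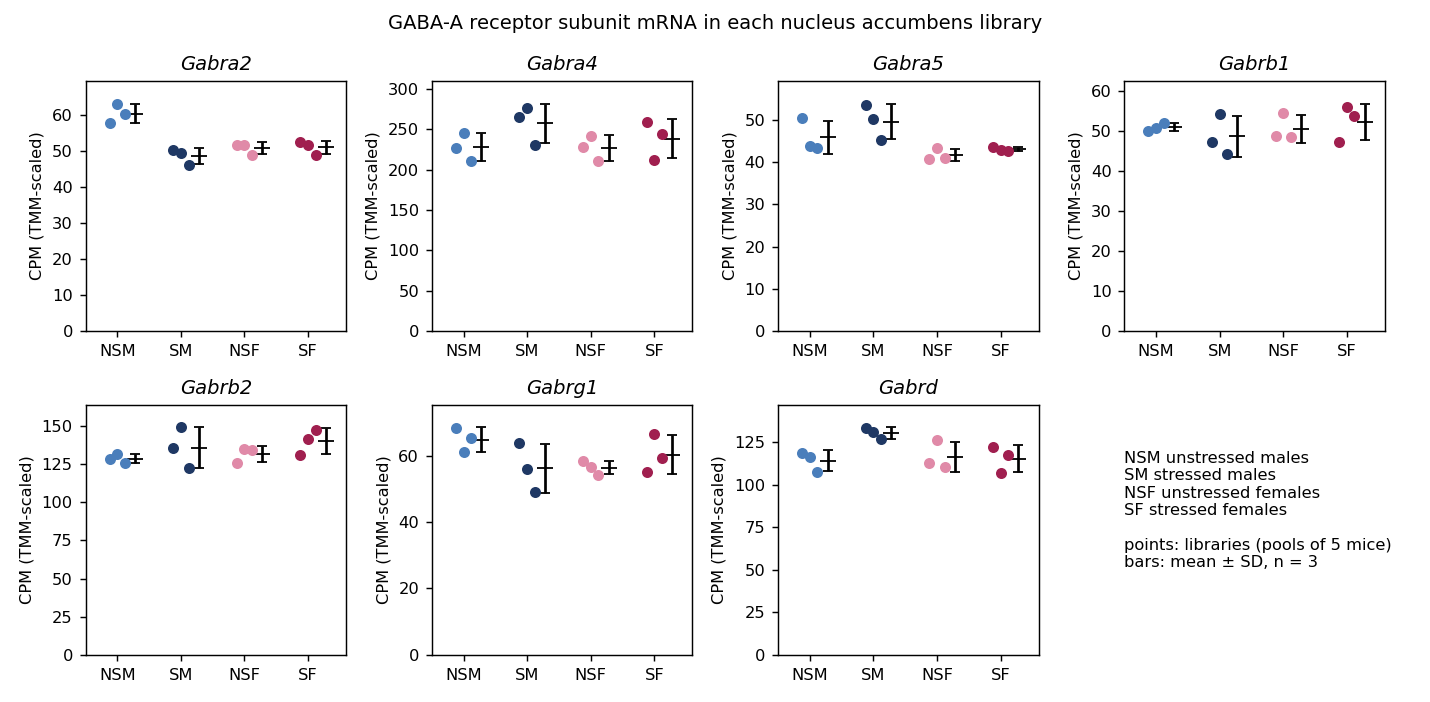
CPM of each subunit gene in each library on linear axes from 0, with points for libraries (pools of 5 mice) and bars for mean ± SD (n = 3). The 3 unstressed male libraries of *Gabra2*, at 57.9 to 63.2 CPM, lie above the other 9, at 46.3 to 52.7 CPM.

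*Gabra2*, which codes for the α2 subunit of synaptic receptors, was the only member that differed at an adjusted p under 0.05, in males after stress. Its level was 57.9, 63.2 and 60.3 CPM in the NSM libraries and 50.5, 49.5 and 46.3 in the SM libraries. In females it was 51.8, 51.9 and 49.1 CPM in NSF and 52.7, 51.6 and 49.1 in SF. Each stressed male library was thus below each unstressed one, and the 2 female groups overlapped. In males *Gabra2* fell by 19.4%, which is -0.31 on the log2 scale (standard error, SE, 0.05, adjusted p = 0.0088, limma), less than the fold change of 1.3 in the rule. Of all genes 3.32% had an adjusted p under 0.05, and 1.84% had it with a lower level in stressed males. Without NSM replicate 2 the adjusted p of *Gabra2* was 0.0534 (limma; 0.000122 to 0.0534 over all alternatives). After stress in females the log2 fold change was 0.01, with a 95% interval of -0.11 to 0.12. The difference between these effects was 0.32 on the log2 scale with an SE of 0.07, an unadjusted p of 0.00073 and an adjusted p of 0.169 (limma; 0.0392 by DESeq2 to 0.593 without the libraries NSF1, NSF3 and SM3).

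Each of the 3 unstressed male libraries held more *Gabra2* than each of the other 9 libraries. This pattern was singled out after the values were seen, and it was found in 1 of 7 members and in 2.3% of all tested genes. Unstressed females had a mean of 50.9 ± 1.60 CPM (SD, n = 3) and unstressed males 60.5 ± 2.64, a log2 difference of -0.25 with an SE of 0.05 (adjusted p = 0.0669, limma; 0.00388 to 0.370 over the alternatives). Stressed females and stressed males differed by 0.07 (95% interval -0.04 to 0.18). The oligodendrocyte and blood marker sums were lowest in the same 3 unstressed male libraries. All 6 astrocyte markers had a negative log2 fold change in males after stress, with a median of -0.06. For 2 of them the unadjusted p was under 0.05 (limma), beside 11.5% of all genes that were lower at that p. In the difference between the stress effects all 6 were positive, and the astrocyte sums of SM and NSM overlapped. Whether any of these lists has a part in the *Gabra2* values was not tested. Without NSM replicate 1, the library high in the choroid plexus marker *Ttr*, the change in males was -0.33. Without the 3 libraries with the highest cortical sums (NSF1, NSF3 and SM3) the change in males was -0.27 with an adjusted p of 0.0298 (limma).

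*Gabrg1*, the γ1 subunit, is the neighbor of *Gabra2* in the cluster. It had 68.3, 61.0 and 65.2 CPM in NSM and 63.7, 56.0 and 48.9 in SM. In females it had 58.3, 56.6 and 54.3 CPM in NSF and 54.9, 66.6 and 59.2 in SF. The stressed and unstressed groups overlapped in both sexes, and all NSF libraries were below all NSM libraries. *Gabrg1* had a log2 fold change of -0.21 in males (SE of 0.09, unadjusted p = 0.028, adjusted p = 0.179, limma) and of 0.09 in females (95% interval -0.10 to 0.28). The value in males was -0.11 without SM replicate 3 (unadjusted p = 0.190, limma), and the unadjusted p was also above 0.05 without NSM replicate 1, NSM replicate 3 or SM replicate 2. The stress effects of the sexes differed by 0.31 (SE 0.12, adjusted p = 0.464, limma), and unstressed females had -0.20 relative to unstressed males (adjusted p = 0.295, limma). The first had an unadjusted p above 0.05 without NSM replicate 1, SM replicate 3, NSF replicate 3 or SF replicate 2, and the second without NSM replicate 1, NSM replicate 3, NSF replicate 2 or NSF replicate 3.

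Over the 12 libraries *Gabra2* and *Gabrg1* had Pearson's r = 0.624 (permutation test, adjusted p = 0.161 over 21 pairs of members). It was 0.268 for the deviations from the group means. In the same cluster *Gabra4* had its highest mean in stressed males (257 CPM) and *Gabrb1* in stressed females (52.4 CPM). Since *Gabra2* and *Gabrg1* neighbor each other and both had their highest mean in unstressed males, the 150 bases upstream of their RefSeq start sites are shown (GRCm38.p6, minus strand), with CG dinucleotides in capitals. For *Gabra2* they lie at chr5:71095850-71095999 and for *Gabrg1* at chr5:70842618-70842767.
Gabra2: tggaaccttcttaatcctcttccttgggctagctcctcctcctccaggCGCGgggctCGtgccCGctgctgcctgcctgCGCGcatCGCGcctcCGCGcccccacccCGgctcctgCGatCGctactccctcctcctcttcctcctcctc
Gabrg1: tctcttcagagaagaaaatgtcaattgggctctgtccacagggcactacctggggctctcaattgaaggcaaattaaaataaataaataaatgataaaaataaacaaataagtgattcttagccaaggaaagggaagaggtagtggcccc
*Gabra2* has 13 CG dinucleotides and 68.7% G or C in this stretch, and *Gabrg1* has 0 and 38.7%. Of the 32851 RefSeq promoters 20.3% had as many CG dinucleotides as *Gabra2* or more in the same stretch, and 14.3% had as few as *Gabrg1*.

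*Gabrd*, the δ subunit, was in the opposite direction in males. It had 118.9, 116.5 and 107.3 CPM in NSM and 133.5, 130.8 and 127.0 in SM. In females it had 112.6, 126.5 and 110.3 CPM in NSF and 122.2, 106.7 and 117.5 in SF. Each stressed male library was above each unstressed male and each stressed female library, and the female groups overlapped. The log2 fold change was 0.19 in males (SE 0.06, unadjusted p = 0.010, adjusted p = 0.116, limma) and -0.01 in females (95% interval -0.15 to 0.13). In males groups that did not overlap were found for 2 of the 7 members, *Gabra2* and *Gabrd*, and for 23% of all genes. The difference between the stress effects was -0.20 (SE 0.09, adjusted p = 0.505, limma), and its unadjusted p was above 0.05 without NSM replicate 3, SM replicate 1, SM replicate 2, NSF replicate 2 or SF replicate 2. Stressed females had -0.18 relative to stressed males (SE 0.06, adjusted p = 0.189, limma), which was -0.13 without SF replicate 2 (unadjusted p = 0.0711, limma).

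*Gabra4*, the α subunit that pairs with δ, had 210.6 to 246 CPM in NSM, 230.2 to 276 in SM, 210.3 to 242 in NSF and 211 to 259 in SF. The groups overlapped in each comparison, and the log2 fold change was 0.17 in males (SE of 0.09, unadjusted p = 0.065, adjusted p = 0.263, limma) and 0.07 in females (95% interval -0.12 to 0.25). In males the unadjusted p was under 0.05 without SM replicate 3, where the change was 0.26, and by DESeq2, where it was 0.19. Across the 12 libraries *Gabra4* and *Gabrd* varied together, with Pearson's r = 0.840 (permutation p = 0.00092, adjusted p = 0.0193 over 21 pairs of members) and Spearman's rho = 0.776 (permutation p = 0.00422, adjusted p = 0.0886). Without the 2 libraries farthest from the median of *Gabra4* r was 0.728, and it was 0.816 for the deviations from the group means. The permutations ignored the groups, and no p was computed for the deviations. No other pair of members had an adjusted p under 0.05 for r. *Gabrb1* and *Gabrb2* had r = 0.675 (permutation test, adjusted p = 0.118) and a similar 0.812 for the deviations. Genes outside the list reached a higher r, among them *Kcnab1* with *Gabra4* (0.978) and *Rasgef1a* with *Gabrd* (0.948). In each group 1 library was lowest in both *Gabra4* and *Gabrd*, replicate 3 of NSM, SM and NSF and replicate 2 of SF, and the same library had the lowest sum of projection neuron markers. Of the 10 markers of these neurons, 9 had a positive log2 fold change in males after stress, with a median of 0.12 beside -0.01 over all genes. For 3 of them, *Drd1a* (0.21), *Ppp1r1b* (0.18) and *Pde10a* (0.24), the unadjusted p was under 0.05 in limma, none was regulated, and the sums of SM and NSM overlapped. Their part in the male values of *Gabrd* and *Gabra4* and in the relation between both genes was not tested.

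*Gabra5*, the α5 subunit, which in other regions is known for extrasynaptic receptors, had 50.4, 43.9 and 43.3 CPM in NSM and 53.5, 50.1 and 45.1 in SM. It had 40.8, 43.3 and 41.1 CPM in NSF and 43.5, 43.0 and 42.6 in SF. All female libraries were below all stressed male libraries, and all NSF libraries were below all NSM libraries, by a narrow margin. Stressed females had a log2 difference of -0.20 from stressed males (SE 0.07, unadjusted p = 0.011, adjusted p = 0.167, limma), and unstressed females -0.13 from unstressed males (unadjusted p = 0.069, limma). Groups that did not overlap were found for *Gabra5* and *Gabrd* between stressed sexes, beside 20.4% of all genes, and for *Gabra2*, *Gabrg1* and *Gabra5* between unstressed sexes, beside 19.5%. Between stressed and unstressed mice the log2 fold change of *Gabra5* was 0.11 in males (95% interval -0.04 to 0.26) and 0.04 in females (95% interval -0.10 to 0.19).

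The β subunits *Gabrb1* and *Gabrb2*, which most receptors need to reach the membrane, had no difference at an unadjusted p under 0.05 in any comparison with all libraries. *Gabrb1* had 44.4 to 55.9 CPM over the 12 libraries, and its stress effect was -0.07 in males (95% interval -0.24 to 0.10) and 0.05 in females (-0.12 to 0.21). *Gabrb2* had 122 to 149 CPM, and its effect was 0.07 in males (95% interval -0.07 to 0.22) and 0.09 in females (-0.06 to 0.23). Without SM replicate 3 the male value of *Gabrb2* was 0.15 at an unadjusted p of 0.0253 (limma). A fold change of 1.3 in either direction lies outside all 4 of these intervals.

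**Figure D4:**
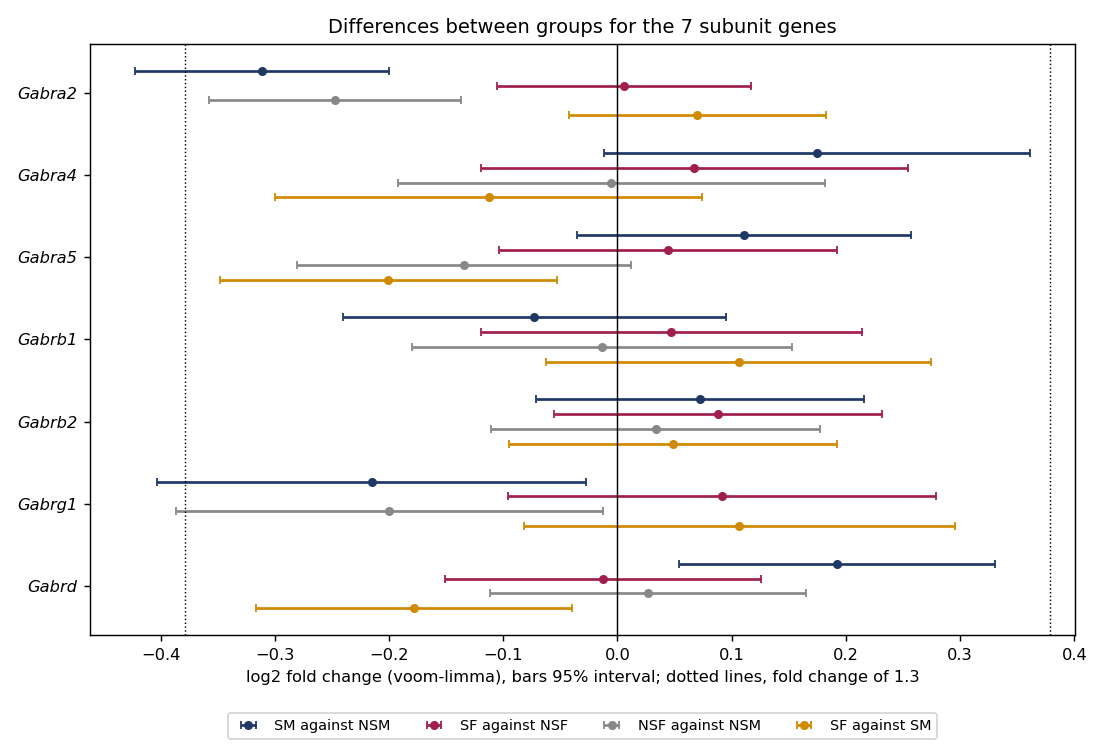
Log2 fold changes of the 7 subunit genes in 4 comparisons with 95% intervals from limma, and dotted lines at a fold change of 1.3. No estimate lies beyond the dotted lines, and the stressed males of *Gabra2*, at -0.31, lie furthest from 0.

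The other subunits were compared from a fixed list, 6 of which could be tested. Of these, 2 were regulated in males after stress, both lower and both at low levels, beside 4.08% of all genes that were regulated downward. *Gabrq*, the θ subunit, had 456, 164 and 460 reads in NSM and 111, 104 and 105 in SM, -1.38 on the log2 scale (SE 0.50, adjusted p = 0.141, limma). *Gabre*, the ε subunit, had 101, 55 and 111 reads in NSM and 41, 51 and 38 in SM, -0.74 on the log2 scale (SE 0.29, adjusted p = 0.163, limma). With library quality weights the values were -0.96 and -0.45 and neither was regulated. In females neither was regulated either, and *Gabrq* had 109 to 338 reads in NSF and 132 to 487 in SF. Stressed females had more *Gabre* than stressed males, with a log2 difference of 0.78 (adjusted p = 0.202, limma). It was the only 1 of the 6 regulated there, beside 4.58% of all genes that were regulated upward in females. Its unadjusted p was above 0.05 without SF replicate 2 (0.50), without SM replicate 3 (0.66) and without NSF replicates 1 and 3 and SM replicate 3 together (0.66). The male change of *Gabre* was above that p without NSM replicate 1 (-0.66), NSM replicate 3 (-0.53) or SM replicate 3 (-0.62). The remaining 4, *Gabra3*, *Gabrg3*, *Gabrr1* and *Gabrr2*, had log2 fold changes in males between -0.17 for *Gabrr2* and -0.0074 for *Gabrg3*, and none was regulated in any comparison.

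Genes of GABA handling were taken from fixed lists of synthesis and breakdown, transport, GABA-B receptors, receptor anchoring and trafficking, chloride cotransporters and neurosteroid synthesis, of which 36 of 37 were tested. In males after stress 1 was regulated, *Slc6a12*, a betaine and GABA transporter with 21, 9 and 14 reads in NSM and 3, 4 and 10 in SM (log2 fold change -1.15, adjusted p = 0.123, limma), and its unadjusted p was above 0.05 by DESeq2 and without NSM replicate 1, SM replicate 1 or SM replicate 2. At an unadjusted p under 0.05, 5 were higher and 5 lower in males, beside 9.93% and 11.5% of all genes. In females after stress 0 were regulated, and 0 had an unadjusted p under 0.05 in limma. The median log2 fold change of the 36 was 0.02 in males and 0.01 in females, beside -0.01 and -0.0039 over all genes. Between unstressed sexes none was regulated and 5 were higher in females at an unadjusted p under 0.05, beside 10.2% of all genes. Between stressed sexes *Slc32a1*, which loads GABA into synaptic vesicles, was higher in females by a log2 difference of 0.50 (SE 0.10, adjusted p = 0.0835, limma). *Slc32a1* was regulated there under every alternative, but its adjusted p ranged from 0.00138 by DESeq2 to 0.424 without SM replicate 2 (limma). It had 263 ± 21.7 CPM in SF and 186 ± 13.0 in SM (SD, n = 3) and was the only one of the 36 regulated there, beside 4.58% of all genes that were regulated upward in females. At an unadjusted p under 0.05, 8 of the 36 were higher and 1 was lower in stressed females than in stressed males, beside 11.7% and 4.76% of all genes. For the difference between the stress effects none was regulated, and 3 were higher and 1 lower at that p, beside 5.14% and 4.4% of all genes.

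For each member the 2 genes most like it over the 12 libraries were found by Pearson's r of log2 CPM among 16875 other tested genes with a symbol and a mean of at least 10 reads, as a description. *Gabra2* was most like *Fndc3a* (0.952) and *Amotl1* (0.940), with 0.729 and 0.892 for the deviations from the group means. *Gabra4* was most like *Kcnab1* (0.978), a potassium channel β subunit, and *Ppp1cb* (0.967), a catalytic subunit of protein phosphatase 1. *Gabrd* was most like *Rasgef1a* (0.948) and *Car12* (0.947), and *Gabra5* like *Tsr2* (0.964) and *Ldb2* (0.963). *Gabrb1* was most like *Armc3* (0.920) and *Spata18* (0.910), *Gabrb2* like *Frmpd4* (0.903) and *Usp53* (0.887), and *Gabrg1* like *6330403K07Rik* (0.931) and *Maged1* (0.914). All share the same libraries and their depths.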

How the data were processed

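The authors used TopHat2 and HTSeq on paired 50-base reads, with Ensembl genes of NCBIM37, and deposited raw counts for each gene. The strand setting of the counting is not given in the sources used here, and the kit keeps no strand. All 12 columns of the table were mapped by name to libraries, and the small RNA counts were not used here.

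The filter kept genes that exceeded 5 reads in 80% or more of the libraries of some group. Libraries were scaled by TMM (edgeR 4.0.16) and fitted with voom and limma 3.58.1 in R 4.3.3, with 1 mean per group. P values were adjusted by Benjamini-Hochberg across every tested gene. CPM are counts scaled to library size with TMM factors, and RPKM divide them by the summed length of all annotated exons. Correlations between members were tested with 100000 permutations (scipy 1.17.1) of all 12 libraries without regard to group. Their p values thus do not separate differences between groups from variation within them. For 1 gene and 3 against 3 pools, the smallest p of an exact permutation test is 0.1. The steps were tested on simulated data for the male comparison, where 95% of fold changes of 1.5 and 100% of those of 2 were called. Changes as small as those of the members were not covered. Whether pools share litters or cages is not given in the sources used here. Sequences are from GENCODE transcripts and RefSeq promoters.

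The 7 members and the lists were chosen with earlier results of these data known. Some other subunits are not reported here. Named genes are the members, the other subunits by level, the regulated genes of the GABA lists and the 2 genes most like each member. Alternatives tried were DESeq2 1.42.0, the quasi-likelihood test of edgeR, scaling by library size, DESeq2 size factors or quantile normalization, filters of at least 1 read in any library or 10 in every library, quality weights, the replicate number as a block, pairwise fits, calling by either p alone, leaving out each library, and, added after the data were seen, leaving out the 3 libraries with the highest cortical sums and other transcript lengths.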

Additional observations from a re-analysis of the deposited data

Results flagged for a closer look

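For 3 members, beside 9.55% of all genes, the stress effect differed between the sexes at an unadjusted p under 0.05 (limma's interaction test). The difference is given as the effect in females minus that in males on the log2 scale. It was 0.32 for *Gabra2* (adjusted p = 0.169), 0.31 for *Gabrg1* (adjusted p = 0.464) and -0.20 for *Gabrd* (adjusted p = 0.505). Of the other subunits *Gabre* had 0.96 (adjusted p = 0.464) and *Gabrq* 1.69 (adjusted p = 0.462), both from low counts. These 2 of the 6 tested other subunits were regulated by the rule for this difference, beside 4.42% of all genes. None passed adjustment over all genes in that fit. The unadjusted p of *Gabra2* was under 0.05 in each of the 12 fits without 1 library, while *Gabrg1*, *Gabrd*, *Gabre* and *Gabrq* each lost it in some, and without SF replicate 2 all 4 did, with 0.23, -0.15, 0.69 and 1.20. Groups of 3 are too small for a test of single outlying libraries.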

How the results depend on the processing

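Under the tools, scalings, filters and weights none of the 7 subunits was regulated in any comparison. By the adjusted p alone 1 was called in males after stress (*Gabra2*), beside 3.32% of all genes. By the unadjusted p alone 3 were called in males, beside 21.5% of all genes. For the difference between the sexes' stress effects 3 were called by it, beside 9.55%. Between unstressed sexes 2 were called and between stressed sexes 2, beside 15.4% and 16.4%. With 1 library left out the count was 0 to 0, except 0 to 1 for the difference between stress effects, where *Gabrg1* was called without SM replicate 1 (0.40). The sign changed for several small differences. For stress in females *Gabra2* was -0.012 with scaling by library size, -0.0027 with quality weights and -0.020 to 0.033 with 1 library left out, and *Gabrd* was -0.056 to 0.050. For the stress difference *Gabrb2* was -0.056 to 0.082. Between unstressed sexes *Gabra4* was -0.063 to 0.050, *Gabrb1* -0.072 to 0.012, and *Gabrd* -0.0066 with quality weights and -0.035 to 0.060. Between stressed sexes *Gabrb2* was -0.032 to 0.10. Without NSF1, NSF3 and SM3 the sign also changed for stress in females in *Gabra2* (-0.0088), *Gabra4* (-0.016) and *Gabrb1* (-0.051), for the stress difference in *Gabrb1* (-0.049) and *Gabrb2* (-0.090), between unstressed sexes in *Gabra4* (0.076) and *Gabrb1* (0.082) and between stressed sexes in *Gabrb2* (-0.032). The cause was not tested. With quality weights *Gabra5* and *Gabrd* had adjusted p values of 0.0178 and 0.0318 between stressed sexes (limma). Same-numbered libraries of a sex correlated in their deviations from the group means at 0.000725 to 0.316. Set against the libraries of all other groups, 8 of 12 libraries correlated best with their own number. The sources used here do not say what the numbers mark, and whether they mark a shared batch was not tested. The main fit did not take them as pairs. With the replicate number as a block 0 subunits were regulated in every comparison, and over all genes 1309 in place of 1198 in males and 362 in place of 322 in females. Counts over all genes moved by more than 1.5 times for females after stress (322) with at least 1 read in any library (865), at least 10 in every library (205), quality weights (531), DESeq2 (194) and 1 library left out (266 to 647). They did so with at least 1 read for the stress difference (1350 in place of 822) and between unstressed (1541 in place of 988) and stressed sexes (1603 in place of 1031, or 1673 with quality weights). Each member had at least 1809 reads in every library, and each group 3 pools.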
